A study of Mus musculus with 26 samples.

Results

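The RGS genes, which encode regulators of G protein signalling and one protein that anchors them, were followed through mesenteric arteries of mice with changes in pannexin 1. The set held 9 genes, Rgs2, Rgs3, Rgs4, Rgs5, Rgs7bp, Rgs9, Rgs10, Rgs12 and Rgs16, taken by symbol from the 57010 genes counted, and all 9 were among the 21031 genes kept in the normalized table. They were selected on their measured values in these same groups, comparisons and library types, so their levels and fold changes are given as a description. The libraries came from mesenteric arteries of male mice aged 8 weeks. The groups were 3 wild-type and 3 global Panx1 knockout (KO) libraries, 3 Y198F mutants (genotype Y198F+/+) with 3 Y198F controls (Y198F-/-), 4 S205A mutants (S205A+/+) with 4 S205A controls (S205A-/-), and 3 Y308F mutants (Y308F+/+) with 3 Y308F controls (Y308F-/-). The knockout is global, so it is not limited to one cell type of the artery. The labels give no strain and do not say whether a library holds the vessels of 1 animal.

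G protein-coupled receptors for noradrenaline, endothelin, angiotensin and ATP set the tone of small arteries. The activated alpha subunit of the G protein turns itself off by splitting its GTP, and an RGS protein speeds that step, so it shortens the signal. Rgs2, Rgs3, Rgs4, Rgs5 and Rgs16 belong to one subfamily of RGS proteins, most of them small. Rgs2 acts mostly on Gq, the class that drives contraction of smooth muscle, while Rgs4 and Rgs5 act on both Gi and Gq. Rgs9 belongs to a subfamily that works as a complex with the beta subunit Gnb5, and Rgs7bp has no RGS domain but tethers such complexes to the membrane. Rgs10 and Rgs12 form part of another subfamily, which acts on Gi.

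Library totals were 14.9 to 23.6 M counts. The library names of 9 hold a number starting in 22 (the 22 series below), and annotated ribosomal RNA took 0.0831 to 0.139% of their counts, against 2.32 to 7.09% in the other 17. This series holds all 3 Y198F mutants, 3 S205A mutants (2 to 4) and 3 S205A controls (1 to 3). None of the Y198F controls belonged to it, so in that comparison the mutation and the series cannot be told apart. Panx1 had 61 to 96 counts in the wild-type and 11 to 27 in the KO libraries. S205A control 1 had 16, within the KO range, and also stood apart in cell markers: its 6 endothelial markers summed to 1193 CPM (counts scaled to a common library total), against 3115 to 10002 CPM in the other 25 libraries. All 6 smooth muscle markers and all 6 endothelial markers were detected in every library, and Myh11, the smooth muscle myosin heavy chain, had 8586 to 16289 CPM.

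The 9 genes spanned a wide range of levels, and 8 had more than 3 counts in every library; Rgs16 had 2 counts in S205A control 2, under the floor of 3 counts taken for detection. Divided by exon length, the median level was 212 CPM per kilobase for Rgs4, 38.8 for Rgs7bp, 35.6 for Rgs2 and 28.1 for Rgs5. It was 12.1 for Rgs3, 2.61 for Rgs9, 2.17 for Rgs12, 1.55 for Rgs10 and 0.557 for Rgs16. Rgs4 lay above Rgs7bp in all 26 libraries, and Rgs3 lay above Rgs9 in all 26. Rgs7bp and Rgs2 were not separated, since Rgs7bp was the higher of the pair in 18 libraries, and Rgs2 was above Rgs5 in 15. Rgs9 was above Rgs12 in 16 of 26 libraries, and this order depended on the library type. Outside the 22 series the mean CPM per kilobase was 3.33 for Rgs9 and 2.16 for Rgs12. In the 22 series it was 0.110 and 2.30, and Rgs9 was there the lowest of the 9, under Rgs16 at 0.459. The median of Rgs9 thus mixes the library types.

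Among the small RGS genes, Rgs4, Rgs5, Rgs2 and Rgs16 lie on chromosome 1. Rgs4 (ENSMUSG00000038530, 169569046 to 169575218, minus strand, GRCm39) ranged from 419 CPM in Y308F control 1 to 1025 CPM in Y198F mutant 2. Rgs5 (ENSMUSG00000026678, 169483036 to 169524887, plus strand), its neighbour 44158 bases away, ranged from 74.9 to 803 CPM. The pair had r = -0.09 and rho = -0.12 over the 26 libraries (permutation tests, adjusted p = 0.742 and 0.664 over 36 pairs of members), with r = -0.36 in the 17 libraries and 0.63 in the 9 of the 22 series. Rgs2 (ENSMUSG00000026360, 143875076 to 143879899, minus strand) was 56.5 to 222 CPM, and Rgs3, on chromosome 4, was 42.7 to 310 CPM. Rgs7bp (ENSMUSG00000021719, chromosome 13, 105082412 to 105191620, minus strand) was 191 to 505 CPM, and Rgs12, on chromosome 5, was 11.4 to 25.7 CPM. Rgs10, known from immune cells and platelets, was 1.09 to 7.14 CPM with 21 to 155 counts, and Rgs16 (ENSMUSG00000026475, 153616091 to 153621228, plus strand) had 2 to 97 counts.

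**Figure D1:**
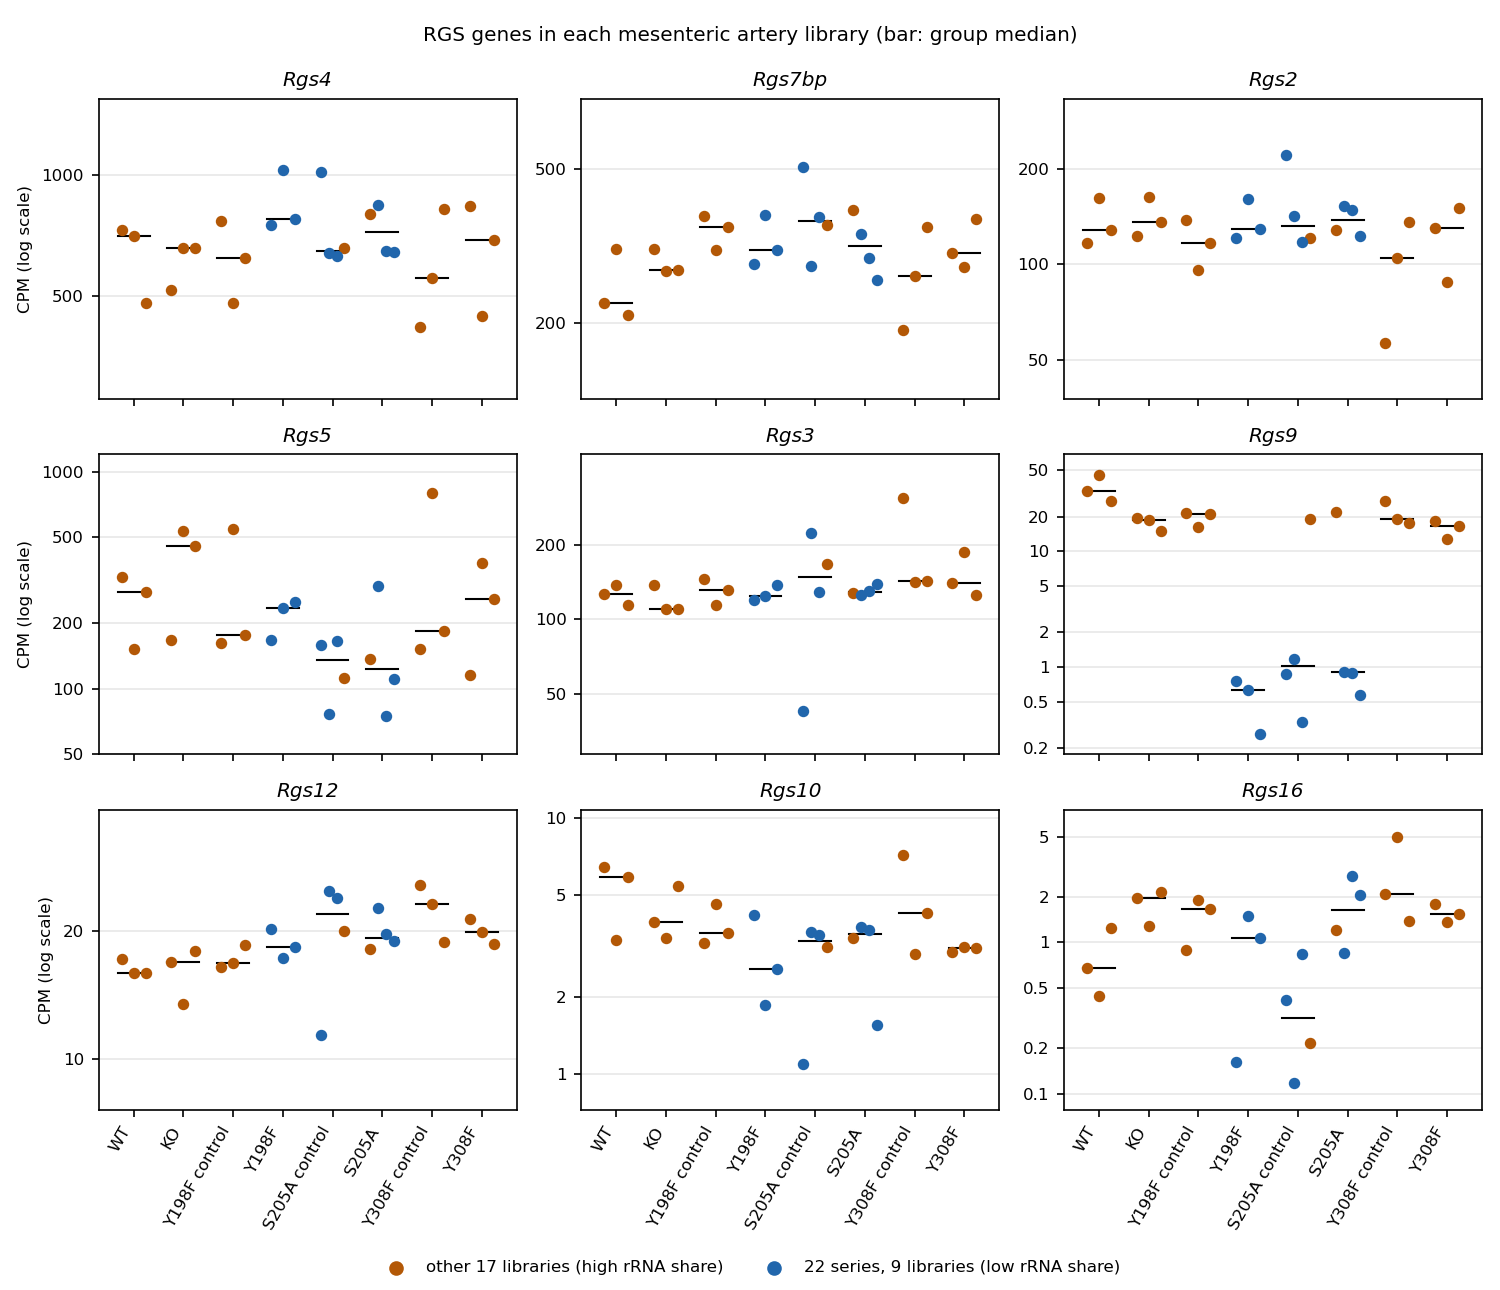
Level of each of the 9 genes in each library (CPM, log scale) by group, with bars at the group medians and blue points for the 22 series. Rgs9 lies between 0.267 and 1.18 CPM in the 22 series and between 12.8 and 45.9 CPM elsewhere, whereas the other 8 genes overlap between the library types.

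Rgs9 was the 1 gene of the 9 whose levels separated the library types. It encodes a long RGS protein best known in photoreceptors and in neurons of the striatum, and it is located on chromosome 11 from 109116158 to 109189025, minus strand (GRCm39, ENSMUSG00000020599). It had 5 to 20 counts in the 22 series and 287 to 827 counts in the other 17 libraries, where the mean was 21.8 CPM ± 7.94 (SD, n = 17) against 0.716 CPM ± 0.293 (SD, n = 9), a ratio of 30.4. Of 18715 genes, 208 (1.11%) were lower in every library of the 22 series than in any other, and 4.65% did not overlap in either direction. Muc6, at 35.0, was the 1 other protein-coding gene of these 208 with a ratio at least as large, among those with counts in both library types. Higher still were small structured RNAs and ribosomal RNA, with ratios of 112 for Rn7sk, the RNA of the 7SK complex, 98.7 for Gm22009, 51.5 for Scarna2 and 36.5 for Rn18s-rs5.

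Within the S205A line, the line with both library types in both genotypes, Rgs9 had 17, 20 and 6 counts in controls 1 to 3 and 356 in control 4. The mutants had 439 counts in mutant 1 and 14, 15 and 9 in mutants 2 to 4. The library of each genotype outside the 22 series was thus the high one. The log2 fold change of the 22 series against the other libraries of this line, adjusted for genotype, was -4.67 (SE 0.339). By edgeR's quasi-likelihood test Rgs9 was the 1 member called, where 867 of 17256 genes (5.02%) were called and 1.16% were called lower. The log2 fold changes of the other 8 members ran from -0.20 for Rgs10 to 0.82 for Rgs16.

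The promoter of Rgs9 (RefSeq, GRCm38.p6) is shown because this gene separates the library types; capitals mark the GC box GGGCGG or its reverse complement, and the window runs from 250 bases before to 50 after the annotated start at chr11:109298132-109298431, minus strand.
Rgs9: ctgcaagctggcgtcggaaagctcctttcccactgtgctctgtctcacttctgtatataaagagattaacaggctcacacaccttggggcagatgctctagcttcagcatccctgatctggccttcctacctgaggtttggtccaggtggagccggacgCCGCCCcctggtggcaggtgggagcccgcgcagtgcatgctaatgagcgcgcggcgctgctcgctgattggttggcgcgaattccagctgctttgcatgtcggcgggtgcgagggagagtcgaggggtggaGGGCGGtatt
The match begins 91 bases before the start and again 41 after it. A GC box on either strand was present in 35.7% of 32851 promoters of the same length.

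Rgs9 also varied among the 17 libraries outside the 22 series, and with the ribosomal RNA share. Over these 17, log2 CPM of Rgs9 and log2 of that share had a Pearson r of 0.77 (permutation p = 0.00068, adjusted p = 0.00612 over the 9 members) and a Spearman rho of 0.65 (permutation p = 0.00523, adjusted p = 0.0471). Without the 2 libraries farthest from the median share, which keeps wild-type libraries in, r was 0.76. The shuffling ignored group, so these p-values do not set differences between groups apart from those within them. The 3 wild-type libraries (4.12 to 5.84%, 27.2 to 45.9 CPM) and Y308F control 1 (7.09%, 27.0 CPM) had the highest shares and Rgs9 levels of the 17. The relation within groups was not tested. None of the other 8 members had both adjusted p-values under 0.05; the next largest r was 0.58 for Rgs3, with an adjusted p of 0.0881. The relation was chosen after the data were seen. In the 9 libraries of the 22 series r was -0.02 and rho -0.25 (exact permutation tests, p = 0.963 and 0.521, adjusted p = 0.963 and 0.709 over the 9 members); there Rgs9 had 5 to 20 counts, and r was -0.37 without the 2 libraries farthest from the median share.

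**Figure D2:**
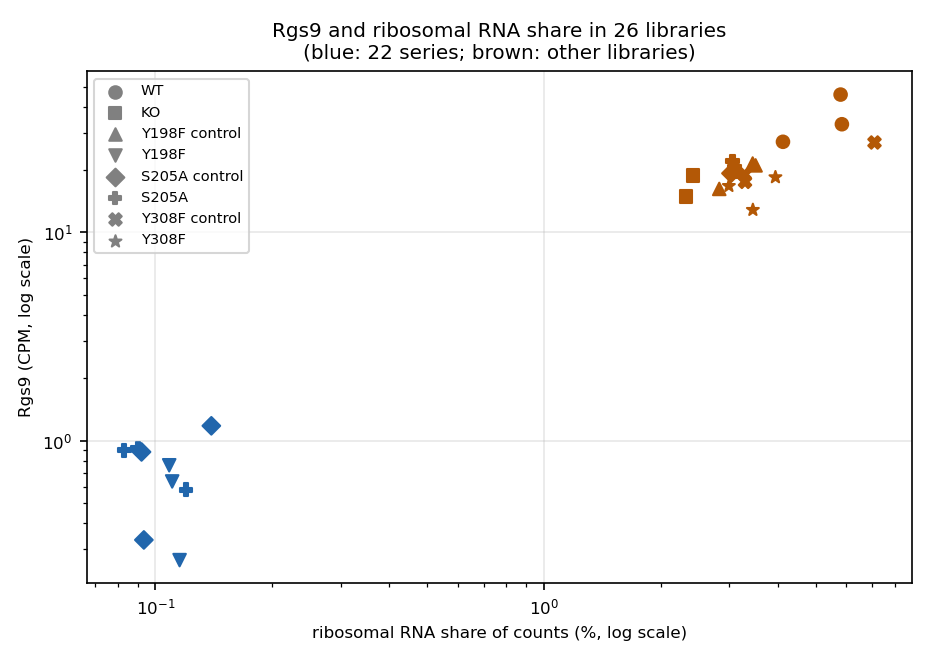
Rgs9 (CPM, log scale) against the ribosomal RNA share of counts (%, log scale) in 26 libraries, with 1 symbol per group. The 22 series (blue) lies below 0.139% and 1.18 CPM, and the 3 wild-type libraries have shares of 4.12 to 5.84%; Y308F control 1 is farthest right at 7.09% and 27.0 CPM.

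The KO comparison set global Panx1 knockout arteries, with fewer Panx1 counts than wild-type but not 0, against wild-type ones. None of the 9 genes was called by edgeR's quasi-likelihood test (an adjusted p under 0.05), where 5 of 16193 genes (0.0309%) were called. At an unadjusted p under 0.05 there were 1817 genes, 2 of them members, Rgs9 and Rgs16, and these were also the 2 whose groups did not overlap, a pattern that 18.8% of all genes had (8.24% higher in KO, as Rgs16, and 10.5% lower, as Rgs9). Rgs9 was 33.0, 45.9 and 27.2 CPM in wild-type libraries 1 to 3, and 19.6, 18.7 and 14.9 CPM in the KO libraries. Every KO library was below every wild-type library. The log2 fold change was -0.98 (SE 0.200), with an edgeR adjusted p of 0.281. The call was made by 2 alternatives: DESeq2 gave an adjusted p of 0.00546 and edgeR with no filter 2.82e-07, and over all alternatives it ran from 2.82e-07 to 0.924. The ribosomal RNA share moved with it, from 4.12 to 5.84% in wild-type to 2.32 to 3.09% in KO libraries. Rn7sk had 1551 to 2010 counts in wild-type and 826 to 1073 in KO libraries, and per 100 Rn7sk counts there were 34.1 to 41.1 Rgs9 counts in wild-type and 34.5 to 41.7 in KO libraries. The part of these RNAs in the Rgs9 difference was not tested.

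Rgs16, a small RGS protein whose transcript is low in most resting tissues, had 13, 8 and 24 counts in the wild-type and 37, 27 and 43 in the KO libraries. The levels were 0.783 CPM ± 0.407 (SD, n = 3) and 1.80 CPM ± 0.465 (SD, n = 3), and the groups did not overlap. The log2 fold change was 1.21 (SE 0.504), with an edgeR adjusted p of 0.425. The 5 fibroblast markers summed to 2073 to 3448 CPM in wild-type and 2322 to 2777 CPM in KO libraries. Other marker and clock lists moved with no gene called and with overlapping sums. The median log2 fold change was 0.53 for the 5 macrophage markers (10.9 to 45.6 and 25.2 to 53.4 CPM), 0.59 for the 4 morning clock genes (75.5 to 135 and 98.9 to 165 CPM), -1.57 for the 5 adipocyte markers (315 to 1899 and 123 to 610 CPM) and -2.70 for the 3 erythroid ones (at most 351 and 21.6 CPM). Their part in the Rgs16 difference was not tested. Rgs5, a small RGS protein known as a pericyte and arterial smooth muscle marker, was 328, 153 and 280 CPM in wild-type and 167, 536 and 456 CPM in KO libraries. The groups overlapped, and the log2 fold change was 0.63 (SE 0.513). The other 6 genes had log2 fold changes between -0.27 for Rgs10 and 0.22 for Rgs7bp, and the median over the 9 was 0.00 against 0.01 over all genes tested.

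**Figure D3:**
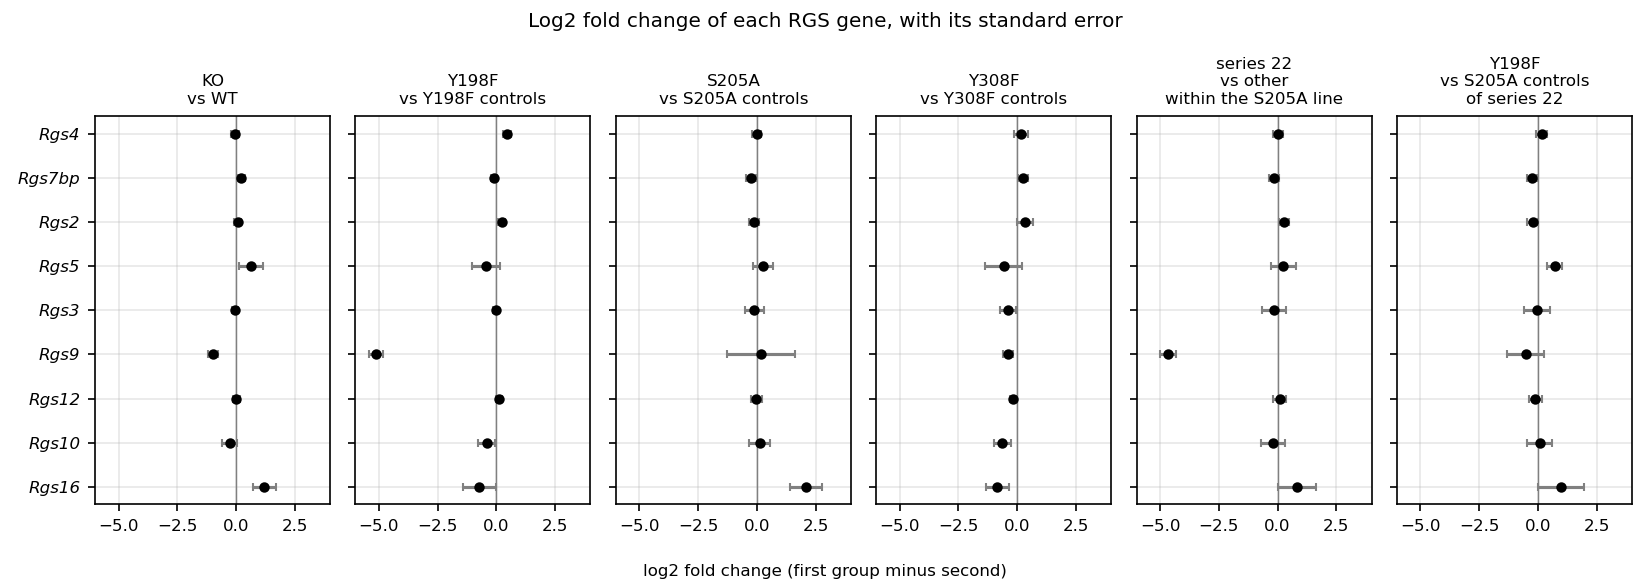
Log2 fold change of each gene with its standard error in the 4 labelled comparisons, in the 22 series against the other libraries of the S205A line, and in Y198F mutants against S205A controls of the 22 series. Rgs9 is at -5.13 in the Y198F comparison and at -4.67 between the library types, and at -0.52 where both groups belong to the 22 series.

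In the Y198F comparison 1 member was called, Rgs9, which was lower, where 15% of 16050 genes were called and 5.48% were called lower. Its values were 0.761, 0.636 and 0.267 CPM in Y198F mutants 1 to 3 and 21.4, 16.2 and 21.0 CPM in their controls, without overlap, as for 34.2% of all genes and, in this direction, 15.1%. The log2 fold change was -5.13 (SE 0.314); in the fit of all 8 groups with the library series as a term it was -0.45 (SE 0.456) and not called. The mutants and their labelled controls differ in library type in the same way. Other lists moved in this comparison as well. The 7 clock genes of the evening phase summed to 271 to 384 CPM in controls and 875 to 1705 CPM in mutants, with 4 called higher, among them Dbp (4.10) and Nr1d1 (1.92) on the log2 scale. Of the 5 Schwann cell markers, which summed to 105 to 182 CPM in controls and 83.8 to 97.7 CPM in mutants, 2 were called lower, and the 5 fibroblast markers had a median log2 fold change of -1.08 with none called (2053 to 2621 and 1156 to 1925 CPM). The 6 endothelial markers summed to 3767 to 4798 CPM in controls and 5015 to 5393 CPM in mutants, with 2 called higher. The 4 clock genes of the morning phase summed to 204 to 249 CPM in controls and 77.9 to 129 CPM in mutants, with 1, Clock, called lower. Of the 6 smooth muscle markers Tagln (1.14) and Smtn (0.54) were called higher and Lmod1 (-0.48) lower, with overlapping sums. The part of these genes in the Rgs9 difference was not tested. Against S205A controls 1 to 3, which belong to the 22 series and had 0.881, 1.18 and 0.333 CPM, the log2 fold change was -0.52 (SE 0.776), the groups overlapped, and none of the 9 members was called. In that comparison edgeR called 0 of 15879 genes (0%), with 492 at an unadjusted p under 0.05, and DESeq2 called 37 genes and 0 members; these controls come from another line.

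Rgs4, the most abundant of the 9, was 749, 1025 and 775 CPM in the Y198F mutants and 766, 482 and 621 CPM in their controls. The highest control lay above the lowest mutant. The log2 fold change was 0.44 (SE 0.180), with an edgeR adjusted p of 0.131, while DESeq2 gave 0.0487 and edgeR with no filter 0.0126; over all alternatives it ran from 0.0126 to 1.00. Against the S205A controls of the 22 series it was 0.16 (SE 0.233). Rgs5 was 168, 236 and 251 CPM in the mutants and 163, 546 and 177 CPM in the labelled controls, a log2 fold change of -0.44 (SE 0.578) that became 0.35 without Y198F control 2. The remaining members had log2 fold changes between -0.72 for Rgs16 and 0.22 for Rgs2, all with overlapping groups.

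The S205A comparison is the largest, with 4 libraries a group, although the series' design text gives 3 vascular trees for each genotype; whether the 4 libraries of a group are separate animals is not stated. None of the 9 genes was called, and edgeR called 0 of 15709 genes (0%), with 451 at an unadjusted p under 0.05, while DESeq2 called 47 genes and 0 members. Rgs16 was the 1 member at an unadjusted p under 0.05 and the 1 whose groups did not overlap, which 1.81% of all genes showed, 1.16% in the direction of Rgs16. It had 8, 2, 15 and 4 counts in S205A controls 1 to 4 and 24, 13, 46 and 32 counts in S205A mutants 1 to 4. As CPM these were 0.414, 0.118, 0.833 and 0.216 against 1.20, 0.851, 2.75 and 2.06, so control 3 and mutant 2 nearly met. The log2 fold change was 2.10 (SE 0.677), with an edgeR adjusted p of 1.00. It was 2.12 (SE 0.651) with the library series as a term and 2.04 (SE 0.790) within the 22 series alone, and it ran from 1.77 to 2.74 when single libraries were left out. Over all alternatives the adjusted p ran from 0.305 to 1.00.

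The 5 fibroblast markers moved with Rgs16 in this line. Their sum was 804 to 1283 CPM in the controls and 1239 to 3936 CPM in the mutants, overlapping by 1 pair of libraries, with a median log2 fold change of 1.53 and none of the 5 called. Over the 26 libraries Rgs16 and this list had r = 0.51 and rho = 0.37 (permutation tests, adjusted p = 0.0311 and 0.234), with r = 0.29 without the 2 farthest libraries. Other lists also moved in this line, with no gene called. The 6 immediate early genes summed to 605 to 1167 CPM in controls and 1116 to 3780 CPM in mutants, and the 5 Schwann cell markers to 50.6 to 78.4 and 74.0 to 169 CPM. The median log2 fold change was -1.02 for the 7 clock genes of the evening phase (1176 to 1938 CPM in controls, 312 to 1511 CPM in mutants) and 1.19 for the 4 of the morning phase (76.2 to 129 and 105 to 245 CPM). The part of these cells and genes in the Rgs16 difference was not tested. In bulk tissue, more cells of a type and more RNA per cell cannot be told apart. The log2 fold changes of the other 8 members lay between -0.24 for Rgs7bp and 0.27 for Rgs5. Rgs9 was at 0.17 with a wide SE of 1.45, and each group holds 1 library outside the 22 series: it was -2.75 without mutant 1, 2.93 without control 4 and 0.01 within the 22 series.

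In the Y308F line none of the 9 members was called and none separated the groups, as 10.7% of all genes did. EdgeR called 0 of 16037 genes (0%), with 706 genes and 0 members at an unadjusted p under 0.05, and DESeq2 called 0 genes. The log2 fold changes ran from -0.84 (SE 0.494) for Rgs16 to 0.32 (SE 0.333) for Rgs2, with edgeR adjusted p-values from 0.940 to 0.981. The median over the 9 was -0.39, against -0.03 over all genes tested; it was -0.06 without Y308F control 1, -0.15 without Y308F control 2 and between -0.51 and -0.24 without any 1 of the other libraries. The 6 immediate early genes summed to 460 to 516 CPM in controls and 605 to 1012 CPM in mutants, and the 6 neuron markers to 53.8 to 63.0 and 39.4 to 45.1 CPM, both without overlap and with no gene called. The neuron sum was mostly Uchl1, with a median of 44.1 CPM over the 26 libraries. Tubb3 had a median of 0.58 CPM, Snap25 of 0.20 CPM, and Syt1, Th and Dbh of 0 CPM. The part of these lists in the members' values was not tested. Single libraries of either group moved several of the members' fold changes. Rgs5 was 153, 803 and 185 CPM in the controls and 115, 382 and 258 CPM in the mutants. Its log2 fold change of -0.58 (SE 0.791) became 0.59 without Y308F control 2 and -0.99 without Y308F mutant 2. Rgs3 was 310, 141 and 143 CPM in the controls and 140, 187 and 125 CPM in the mutants, and its -0.39 (SE 0.332) became 0.10 without Y308F control 1. Rgs16 was highest of all libraries in Y308F control 2, with 97 counts, and its value was -0.15 without that library.

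The effects of the 4 mutations were compared pair by pair in 6 tests of their difference. Rgs9 was called in 2 of them. Its KO effect exceeded its Y198F effect by 4.15 (SE 0.375) on the log2 scale, where 11.6% of 17347 genes were called (4.33% in this direction), and the Y198F effect minus the Y308F effect was -4.73 (SE 0.387), where 5.7% of 17190 genes were called (1.79% in this direction). In one fit of all 8 groups these differences were 4.13 (SE 1.78) and -4.71 (SE 1.79), and with the library series added as a term -0.55 (SE 0.532) and -0.04 (SE 0.468). Neither was called in either fit. No other member was called in any of the 6; of all genes, 0.00562% were called for KO against S205A, 0.0116% for KO against Y308F and 0% in the other 2.

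Spread between replicates differed among the members. The SD of log2 CPM within groups was 0.83 for Rgs5, larger than that of 99.1% of the 1000 genes closest to it in level, and 0.50 for Rgs3, larger than 93.6%. Rgs2, at 0.35, and Rgs4, at 0.33, exceeded 87.4% and 84.4% of like genes. Rgs9, at 1.39, exceeded 99.2%, with both library types inside the S205A groups. Rgs12, at 0.25, Rgs10, at 0.53, and Rgs16, at 0.79, were nearer the middle, above 63.6%, 64.8% and 61.0%. Rgs5 was highest in Y308F control 2, Y198F control 2 and KO 2, at 803, 546 and 536 CPM, and lowest in S205A mutant 3, at 74.9 CPM.

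Some of the 9 genes varied together across libraries and others in opposite directions. Correlations were taken over the 26 libraries after each gene was centred within its library type, for the 36 pairs. In 6 pairs both Pearson and Spearman adjusted p-values were under 0.05. Rgs2 and Rgs4 varied together with an r of 0.72 and a rho of 0.72 (permutation tests, adjusted p = 0.00054 and 0.00252), with r = 0.63 without the 2 farthest libraries, 0.71 in the 17 and 0.74 in the 9. Rgs4 and Rgs7bp had r = 0.63 and rho = 0.56 (permutation tests, adjusted p = 0.00486 and 0.0418), with 0.56 without the 2 farthest libraries, 0.59 in the 17 and 0.72 in the 9. Rgs2 and Rgs7bp had an r of 0.58 and a rho of 0.49, the latter with an adjusted p of 0.0622 by permutation, and r fell to 0.27 without the 2 farthest libraries. Rgs3 and Rgs12 had the largest value, r = 0.81 and rho = 0.63 (permutation tests, adjusted p = 0.00036 and 0.0119), with 0.59 without the 2 farthest libraries, 0.73 in the 17 and 0.88 in the 9.

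The other 3 pairs were negative. Rgs2 went against Rgs3, with r = -0.70, rho = -0.52 and adjusted p-values of 0.00533 and 0.0443 by permutation, and against Rgs12, with r = -0.69, rho = -0.54 and adjusted p-values of 0.0042 and 0.0418. Rgs7bp went against Rgs10, with r = -0.61, rho = -0.52 and adjusted p-values of 0.00636 and 0.0443 by permutation. Without the 2 farthest libraries these r were -0.35, -0.47 and -0.40. S205A control 1 and Y308F control 1 lay at the ends of several of these relations. S205A control 1 had the most Rgs2 (222 CPM) and Rgs7bp (505 CPM) and the least Rgs3 (42.7 CPM), Rgs12 (11.4 CPM) and Rgs10 (1.09 CPM) of all libraries. Y308F control 1 had the least Rgs2 (56.5 CPM), Rgs4 (419 CPM) and Rgs7bp (191 CPM) and the most Rgs3 (310 CPM), Rgs12 (25.7 CPM) and Rgs10 (7.14 CPM).

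**Figure D4:**
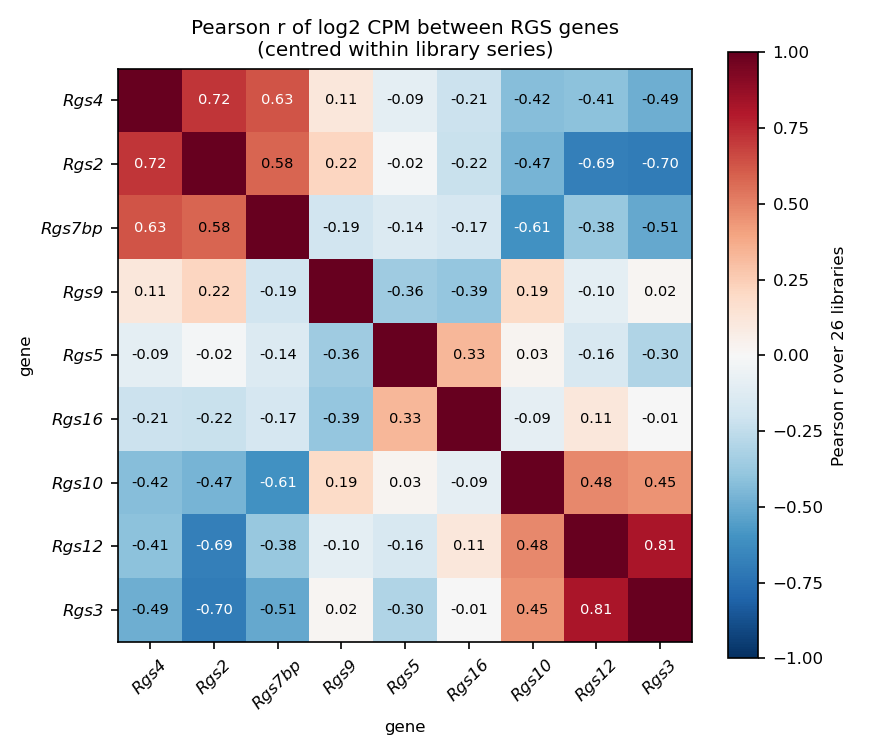
Pearson r of log2 CPM between the 9 genes over 26 libraries, each gene centred within its library type (red positive, blue negative). Rgs4, Rgs2 and Rgs7bp form a positive block of 0.58 to 0.72, and Rgs3 and Rgs12 reach 0.81.

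The promoters of Rgs2, Rgs4 and Rgs7bp are shown because Rgs4 varied together with each of the other 2. They come from RefSeq (GRCm38.p6), all on the minus strand, at chr1:144004100-144004399, chr1:169747593-169747892 and chr13:105054881-105055180, with capitals for the GC box.
Rgs2: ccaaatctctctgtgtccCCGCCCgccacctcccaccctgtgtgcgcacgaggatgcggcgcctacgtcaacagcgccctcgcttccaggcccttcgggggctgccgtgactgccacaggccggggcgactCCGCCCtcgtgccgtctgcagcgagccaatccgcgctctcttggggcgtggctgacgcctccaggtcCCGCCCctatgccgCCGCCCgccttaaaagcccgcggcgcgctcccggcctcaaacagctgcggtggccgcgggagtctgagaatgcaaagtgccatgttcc
Rgs4: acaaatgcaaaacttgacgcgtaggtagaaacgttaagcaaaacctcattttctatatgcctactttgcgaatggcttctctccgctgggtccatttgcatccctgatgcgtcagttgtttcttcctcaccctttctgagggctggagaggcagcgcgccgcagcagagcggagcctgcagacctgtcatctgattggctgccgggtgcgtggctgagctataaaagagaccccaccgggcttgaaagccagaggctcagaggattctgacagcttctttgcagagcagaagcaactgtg
Rgs7bp: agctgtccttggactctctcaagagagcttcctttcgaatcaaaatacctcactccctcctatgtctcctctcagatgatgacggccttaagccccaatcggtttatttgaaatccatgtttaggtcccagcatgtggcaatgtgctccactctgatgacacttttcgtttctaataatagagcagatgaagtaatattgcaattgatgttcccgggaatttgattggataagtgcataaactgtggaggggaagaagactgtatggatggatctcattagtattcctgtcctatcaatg
Rgs2 held 4 GC boxes and the promoters of Rgs4 and Rgs7bp none. Of the other motifs searched on both strands, the E-box CACGTG (in 7.15% of all promoters), the CRE TGACGTCA (1.79%), the AP-1 site TGANTCA (7.81%) and the CArG box (1.63%), none was found in these 3 or in the Rgs9 promoter. No match says only that these letters are not in this window.

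The members also followed different cell type markers. Of 45 relations between the 9 genes and 5 marker lists, 7 had both adjusted p-values under 0.05. Rgs3 followed the 6 endothelial markers most closely, with r = 0.96, rho = 0.77 and permutation adjusted p-values of 0.000225 and 9e-04. Its r was 0.89 without the 2 libraries with the most extreme endothelial sums, 0.92 in the 17 and 0.98 in the 9. In S205A control 1, with an endothelial sum of 1193 CPM, Rgs3 was at 42.7 CPM; in Y308F control 1 and S205A control 2, with sums of 9654 and 10002 CPM, it was at 310 and 223 CPM. Rgs12 had r = 0.81 and rho = 0.63 with the same list (permutation tests, adjusted p = 0.000225 and 0.00828), and 0.63 without the 2 farthest.

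Rgs4 and Rgs7bp followed mural cell markers. The pericyte sum came mostly from Notch3, Cspg4 and Pdgfrb, with medians of 643, 629 and 254 CPM. Abcc9, Higd1b and Kcnj8 had medians of 38.7, 7.04 and 6.68 CPM, so relations with this sum say little of them. With the 6 pericyte markers, which include Pdgfrb and Notch3 and are partly shared with smooth muscle, Rgs7bp had r = 0.72 and rho = 0.70 (permutation tests, adjusted p = 0.00075 and 0.00293), and Rgs4 had r = 0.67 and rho = 0.63 (0.00315 and 0.00828). Rgs4 had r = 0.63 and rho = 0.62 with the 6 smooth muscle markers (permutation tests, adjusted p = 0.00562 and 0.00828). Without the 2 farthest libraries these were 0.68, 0.63 and 0.58. Rgs10 went the other way, with r = -0.64 and rho = -0.55 for the pericyte list (permutation tests, adjusted p = 0.0036 and 0.0315). Rgs5, itself a pericyte marker in many tissues, had r = -0.25 and rho = -0.34 with this list (permutation tests, adjusted p = 0.347 and 0.247). It had r = 0.52 and rho = 0.52 with the 5 macrophage markers (permutation tests, adjusted p = 0.0287 and 0.0433), at r = 0.67 in the 17 and 0.24 in the 9. Macrophage markers summed to 4.24 to 53.4 CPM. The share of each cell type in a library was not measured, and its part in these relations was not tested.

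**Figure D5:**
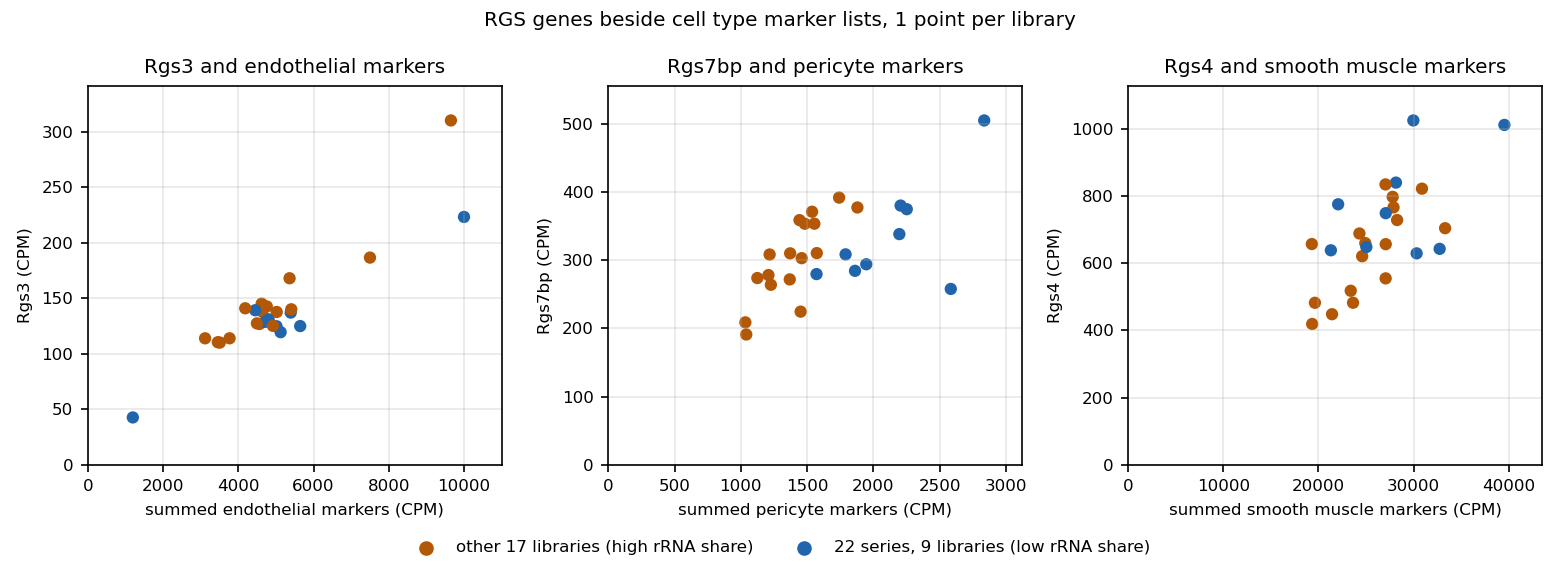
Rgs3 against the summed endothelial markers, Rgs7bp against the pericyte markers and Rgs4 against the smooth muscle markers (all in CPM), with 1 point per library and blue for the 22 series. The isolated point at 1193 CPM of endothelial markers and 42.7 CPM of Rgs3 is S205A control 1.

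The genes most like each member over the 26 libraries, among 10217 searched, were ranked by Pearson r after centring within library type. For Rgs3 they were Card10 (0.98), Tie1 (0.97), a receptor of endothelial cells that is also in the marker list, and Nova2 (0.97). For Rgs7bp they were Sox6 (0.94), Parm1 (0.91) and Kcnma1 (0.87), the pore subunit of the BK potassium channel. Those of Rgs12 were Il2rg (0.88), Ly6e (0.88) and Ass1 (0.87), and those of Rgs2 were Rbm24 (0.85), Kcnab1 (0.81) and Wtap (0.81). Rgs10 was nearest to Twf2 (0.83), Arpc1b (0.79) and Mtch1 (0.78), and Rgs4 to Ror1 (0.82), Itga4 (0.80) and Armcx3 (0.80). The values were lower for Rgs5, with Appl2 (0.74), Tle2 (0.73) and Sfxn4 (0.70), for Rgs9, with Eif4a3 (0.74), Afg2a (0.73) and Tasp1 (0.69), and for Rgs16, with Ssc5d (0.72), Slc22a17 (0.68) and Armt1 (0.66).

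The partners of Rgs9 were measured as well. Gnb5, the beta subunit that Rgs9 binds, was 11.8 to 22.2 CPM, and Rgs9bp, the anchor of the photoreceptor complex, had at most 7 counts and was at 0 in 16 libraries. Of the relatives of Rgs9, Rgs6 was 14.4 to 31.9 CPM, Rgs11 was 4.85 to 13.5 CPM and Rgs7 was at most 3.96 CPM. Gnb5, Rgs6 and Rgs11 were called in none of the 4 labelled comparisons, nor was Rgs7 in the KO and Y308F comparisons, where it passed the filter on low counts.

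Other RGS family genes were counted over a list of 15, of which 6 to 8 passed the filter on low counts in each comparison. In the Y198F comparison Rgs19, which acts on Gi, was higher (log2 fold change 0.73, SE 0.170, edgeR adjusted p = 0.0153) and Rgs1, a regulator best known in lymphocytes, was lower (-0.84, SE 0.212, adjusted p = 0.0225). Against the S205A controls of the 22 series these were 0.23 (SE 0.304) and 0.10 (SE 0.222), and between the library types of the S205A line they were 0.28 (SE 0.300) and -0.53 (SE 0.475). Neither gene was called in these 2 comparisons. In the KO comparison Rgs1 was at 1.31 (SE 0.168) with an edgeR adjusted p of 0.0614. The 15 genes summed to 49.7 to 68.1 CPM in wild-type and 70.0 to 70.6 CPM in KO libraries. These sums did not overlap, as for 18.8% of single genes in that comparison.

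Some genes of the rest of the pathway were called in the Y198F comparison, in both directions, where library type and mutation cannot be told apart and 15% of all genes were called. Of 13 alpha subunits tested, Gna11 (0.47) and Gna12 (0.60) were higher and Gnaq (-0.50), the main alpha subunit of the Gq class, was lower; of 4 beta subunits Gnb2 (0.58) was higher. Of 23 receptors tested, Adra2c (1.00), an alpha-2 adrenoceptor, and Tbxa2r (0.74), the thromboxane receptor, were higher and Lpar1 (-0.94), a receptor for lysophosphatidic acid, was lower. Of 7 receptor kinases and arrestins Grk2 (0.37) was higher and Grk5 (-0.57) and Arrb1 (-0.49) were lower, and of 11 effectors Arhgef1 (0.55) was higher and Prkca (-0.67) and Arhgef12 (-0.52) were lower. Between the library types of the S205A line Gna12 (0.67), Gnb2 (0.57) and Tbxa2r (1.08) were called higher and Arhgef12 (-0.50) lower. In that comparison 5.02% of 17256 genes were called. None of these lists had a called gene in the KO, S205A or Y308F comparison or in Y198F mutants against S205A controls of the 22 series. The 5 beta subunits summed to 639 to 670 CPM in wild-type and 578 to 595 CPM in KO libraries, without overlap.

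In the authors' deposited tables none of the 9 genes passed an adjusted p of 0.05 in the KO, S205A, Y308F or Y198F table. For Rgs16 in S205A the authors' deposited table gives 2.11 on the log2 scale (adjusted p = 0.0684), the smallest among the 9 genes over the 4 tables. For Rgs9 in the knockout, the authors' deposited table gives -0.99 with an adjusted p of 0.901. For Rgs9 in the table named for Y198F, the authors' deposited table gives -3.30 with an adjusted p of 0.347. That table does not hold the comparison with the labelled Y198F controls. Over the 9 genes the log2 fold changes of the authors' deposited table lie within 0.0189 of the log2 ratio of mean CPM in Y198F mutants to that in the 4 S205A controls (-3.28 for Rgs9), and up to 1.90 from the ratio to the Y198F controls (-5.14 for Rgs9).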

How the data were processed

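Poly(A) RNA of 26 libraries was sequenced as pairs of 150 bases; the authors mapped them to GRCm39 with STAR 2.7.9a and counted genes with featureCounts, per the series' design text. Whether counting used the strand is not given in the sources used here. The deposited counts are whole numbers, not normalized. The deposited normalized signal is the counts divided by 1 factor per library. The authors' DESeq2 1.46.0 tables, per the series' design text, hold deposited log2 fold changes with standard errors, a test score, base means as normalized signal and p-values.

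The 9 members and all lists were chosen with earlier results of these data known. Counts were tested with edgeR 4.0.16 in R 4.3.3 (quasi-likelihood test, TMM, filterByExpr, two-sided, Benjamini-Hochberg over all genes tested), and an adjusted p under 0.05 counted as called. CPM used TMM over all 26 libraries, and log2 CPM a prior count of 2. Labels do not show separate animals, so p-values measure only the spread between libraries. Genes outside the 9 were named when called in a comparison, up to 4 per list by smallest p, or as the 3 genes most like a member (mean log2 CPM of at least 3). Marker and ribosomal RNA relations were added after the data were seen, with permutation tests adjusted within each family. All permutation tests, also those of the pairs of members, shuffled libraries without regard to group. Of the gene identifiers, 56310 matched GENCODE vM39, the source of gene positions and exon lengths. Genes overlapping a member had at most 33 counts in a library. Promoters of all 9 genes were matched by symbol to RefSeq (GRCm38.p6), a build kept apart from that of the counts. The fitting script was tested on simulated data. Alternatives were DESeq2 1.42.0, DESeq2 size factors, no filter, all 8 groups in one fit with and without the library series, a block by replicate number, and leaving out single libraries.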

Additional observations from a re-analysis of the deposited data

Results flagged for a closer look

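The tests for a library far from its group covered the 9 genes in each of the 2 groups of 4 libraries, 18 in all, and chance gives such a flag in about 1 in 20. Rgs4 was 1012 CPM in S205A control 1, far above the other 3 controls, and this library also had 16 Panx1 counts and the lowest endothelial sum. Rgs9 was 19.2 CPM in S205A control 4 and 21.9 CPM in S205A mutant 1, which are the libraries of that line outside the 22 series. Rgs10 was 1.55 CPM, or 24 counts, in S205A mutant 4, below the other 3 mutants.

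The effects of 2 mutations on Rgs9 differed by the test of the difference itself in edgeR. The KO effect minus the Y198F effect was 4.15 on the log2 scale, and the Y198F effect minus the Y308F effect was -4.73. The Y198F effect is measured across the library types, and the other effects within 1 type.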

How the results depend on the processing

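The count of members called was 0 for the KO comparison and became 1 with DESeq2 and 1 with no filter on low counts, Rgs9 in both. For the Y198F comparison it was 1 and became 2 with DESeq2 and 2 with no filter, Rgs9 and Rgs4, and 0 in the fit of all 8 groups with the library series. For the difference of the KO and Y198F effects and of the Y198F and Y308F effects it was 1 each and became 0 in the fit of all 8 groups, with and without the series. The cause was not tested. With single libraries left out it stayed at 0 for KO, S205A, Y308F and Y198F against S205A controls, and at 1 for Y198F and for the library types. The S205A line has 2 libraries outside the 22 series, control 4 and mutant 1; without either, that type is 1 library assumed to vary like the others, so those fits say little of stability. Of 765 member values recomputed, fold changes and differences of effects together, 731 stayed within 1 standard error. Of 200 with a size of at least 0.5 on the log2 scale, 2 changed sign, Rgs5 in Y308F without Y308F control 2 (-0.58 to 0.59) and the Rgs9 difference of the KO and Y198F effects with the series as a term (4.15 to -0.55).

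Counts over all genes moved more. KO calls went from 5 to 117 with DESeq2, 243 with no filter and 1 to 5 with a library left out (5 only without WT 3). Y198F calls went from 2411 to 922 in the fit of all 8 groups, 0 with the series as a term, and 908 (without Y198F control 3) to 2128 with a library left out. S205A calls went from 0 to 47 with DESeq2 and 1 without S205A mutant 2, Y308F calls from 0 to 7 with no filter and 1 without Y308F control 3, and those of Y198F against S205A controls from 0 to 37 with DESeq2 and 9 with no filter. Calls between the library types of the S205A line went from 867 to 1336 with DESeq2 and 82 (without S205A control 4) to 1140 with a library left out. In the fit of all 8 groups, calls on the difference of the KO and Y198F effects went from 2004 to 108 and 3 with the series, and on that of the Y198F and Y308F effects from 979 to 0 and 0; for KO and S205A they went from 1 to 2 and 3, and for Y198F and S205A from 0 to 3 and 0.

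Samples with the same replicate number had correlated deviations of -0.284 to 0.225, so the numbers do not pair them. With the replicate number as a block, 0 members were called in KO, S205A and Y308F and 1 in Y198F, and calls over all genes were 18 in KO and 1760 in Y198F. Low counts limit Rgs16 (2 to 97 counts), Rgs10 (21 to 155) and, in the 22 series, Rgs9 (5 to 20).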
